A study of Homo sapiens with 83 samples.

Results

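The 100 genes described here were chosen on their time course in SHEP MYC-ON cells. SHEP is a human neuroblastoma cell line that carries N-MYC-ER, in which N-MYC is joined to a hormone-binding domain; this protein is made at all times and becomes active when 4-hydroxytamoxifen (4OHT) is added. In MYC-ON cells it had been activated with 4OHT, and in MYC-OFF cells only the ethanol vehicle was given. Dexamethasone, a glucocorticoid that sets the clocks of cultured cells to a common phase, was added to both 24 h later, and polyadenylated RNA was sequenced every 4 h, with CT given in hours from the dexamethasone. SHEP had 28 MYC-ON and 28 MYC-OFF libraries, as 2 replicate series of 14 CTs from CT24 to CT76 in each condition. SKNAS, a second N-MYC-ER neuroblastoma line, had 1 series per condition, with 14 MYC-OFF libraries and 13 MYC-ON libraries. Since 4OHT marks every MYC-ON library, an effect of the drug itself and of activated N-MYC cannot be told apart in these comparisons.

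Of 60237 genes in the table, 11814 had a mean of at least 3 TPM (transcripts scaled to a fixed total per library) in SHEP MYC-ON and were considered. In each series the linear trend was removed from log2(TPM + 1) and a 24 h cosine and sine were fitted. The score of a gene was the smaller R2 of its 2 fits, where R2 is the share of the trend-free variation that the 24 h curve takes up. Peaks had to lie within 3 h of each other in the 2 series, which 4748 genes (40.2%) met, and the 100 genes with the highest scores were kept. Clock genes (the ARNTL, CLOCK, PER, CRY, NR1D, ROR, DBP, TEF, HLF, NFIL3 and BHLHE genes) were left out by name. Scores, peaks and amplitudes in SHEP MYC-ON are therefore descriptions of chosen values, and no test was made of them. The MYC-OFF and SKNAS time courses had no part in the choice. Levels did in part, since the minimum of 3 TPM was set in MYC-ON, so that a gene under it in MYC-ON could not enter.

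A circadian clock is a loop in which CLOCK and ARNTL switch on PER and CRY genes, whose proteins then hold CLOCK and ARNTL back, while REV-ERB (NR1D) and ROR proteins act on ARNTL. Output genes follow this loop through E-boxes, D-boxes and ROR elements in their promoters. MYC binds E-boxes too. Cell division, where it falls in step across a culture, can also give a gene a course of about a day. Whether it did so here was not tested.

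The libraries set limits on what the choice can show. SHEP MYC-ON series 2 stood apart late in its course. The slope of a library's log2 values on gene GC content was between 0.016 and 0.127 per 10 points of GC in series 1, but in series 2, after 0.125 at CT36, it was -0.137, -0.152, -0.172 and -0.185 at CT60, CT64, CT68 and CT72 and was back at 0.133 at CT76. The CT72 library also had 25484 genes above 0, where the other SHEP libraries had at most 24896. Without the CT72 library 71 of the 100 genes were chosen again, and without the 4 libraries from CT60 to CT72 only 46 were. Of 10 mesenchymal neuroblastoma markers (such as VIM), SHEP had 10 at a mean of at least 1 TPM in MYC-ON. In MYC-OFF it had 9, with PRRX1 at 0.633 TPM. Of 10 adrenergic ones it had 4 in both, which were HAND2, GATA2, GATA3 and TBX2. Their means in that order were 26.6, 39.7, 18.7 and 9.67 TPM in MYC-ON and 15.7, 16.2, 17.1 and 9.59 TPM in MYC-OFF. The other adrenergic markers were under 1 TPM, with PHOX2A at or near 0. Of 12 immune, epithelial and endothelial markers, only KRT18, a keratin that many cultured lines make, was above 1 TPM on average in MYC-ON (927 TPM), joined in MYC-OFF by KRT5 (1.86 TPM), and PTPRC and CD3E were at or near 0. The summed level of these 12 markers was 690.4 to 1189 TPM in MYC-ON and 605 to 1587 TPM in MYC-OFF; their part in the results was not tested.

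The gene with the highest score was LRRC20, which encodes a leucine-rich repeat protein, at an R2 of 0.88 in series 1 and 0.90 in series 2. CCL2, a chemokine that draws monocytes, followed at a score of 0.65, SLC2A12, the hexose transporter GLUT12, at 0.64 and ZNF526, a zinc-finger protein, at 0.63. TRIOBP, which bundles actin filaments, had a score of 0.62, and TRAPPC2, a subunit of a complex for vesicle transport, 0.60. The scores of the next 9 genes ran from 0.58 for AMN1 through TMEM201, TLCD3A, LMLN, DUSP7, EWSR1, ARHGAP23 and SIRPA to 0.51 for CTBP2. TMEM201 is a protein of the inner nuclear membrane, LMLN a metallopeptidase, DUSP7 a phosphatase of ERK kinases, EWSR1 an RNA-binding protein, SIRPA the receptor of CD47 and CTBP2 a transcriptional corepressor. The median score was 0.43. At the limit, IQCK, the nuclear pore subunit NUP160 and the pseudogene AMZ2P1 were just inside with scores of 0.383, 0.382 and 0.381, and PIP4K2A, PPIF and MFSD12 just outside with 0.381, 0.381 and 0.381, so the limit cut through genes that hardly differed.

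The 250 bases before the start of the gene (RefSeq, GRCh38.p14) are shown for the gene with the highest score, which had none of the clock-type motifs, and for 3 with a match, as 1 run from 5′ to 3′ on the strand of the gene. Capitals mark CACGTG in LMLN (from -198) and IQCK (from -89) and GGAATTTCC in CXCL1 (from -78), with positions counted back from the first base of the gene. LRRC20 lies at chr10:70382626-70382875 (minus strand), LMLN at chr3:197959967-197960216 (plus), IQCK at chr16:19718021-19718270 (plus) and CXCL1 at chr4:73869143-73869392 (plus).
LRRC20: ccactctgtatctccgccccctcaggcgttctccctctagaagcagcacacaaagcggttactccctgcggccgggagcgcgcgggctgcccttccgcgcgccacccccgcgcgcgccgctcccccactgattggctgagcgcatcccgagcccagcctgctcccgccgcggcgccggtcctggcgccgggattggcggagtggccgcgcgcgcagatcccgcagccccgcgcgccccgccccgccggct
LMLN: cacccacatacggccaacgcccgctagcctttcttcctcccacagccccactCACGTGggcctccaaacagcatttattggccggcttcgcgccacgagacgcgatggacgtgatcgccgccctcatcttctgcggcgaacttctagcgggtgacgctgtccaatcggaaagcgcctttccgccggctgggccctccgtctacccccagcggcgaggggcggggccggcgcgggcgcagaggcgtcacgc
IQCK: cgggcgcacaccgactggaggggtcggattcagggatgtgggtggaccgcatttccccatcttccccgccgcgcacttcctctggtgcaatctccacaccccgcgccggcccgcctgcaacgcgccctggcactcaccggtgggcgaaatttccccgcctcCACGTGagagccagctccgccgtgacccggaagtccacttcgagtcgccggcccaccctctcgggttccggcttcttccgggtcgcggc
CXCL1: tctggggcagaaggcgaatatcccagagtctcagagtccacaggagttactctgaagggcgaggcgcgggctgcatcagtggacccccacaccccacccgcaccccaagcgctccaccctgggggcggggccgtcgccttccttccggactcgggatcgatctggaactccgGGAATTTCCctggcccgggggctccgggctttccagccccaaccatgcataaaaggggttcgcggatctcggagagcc

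These motifs were looked for in all the promoters at hand. Of the 100 genes, 79 matched a RefSeq window on GRCh38.p14 from 250 bases before to 50 after the start of the gene. The E-box CACGTG, a palindrome that CLOCK, ARNTL and MYC bind, was in 6 of 79 windows (7.59%), against 7.43% of all 27305 windows and 10.6% of 9057 windows of the genes considered. The D-box TTANGTAA and the ROR element core TAGGTCA, searched on both strands, were in 0 of 79, with 1.08% and 1.115% among the genes considered. The cyclic AMP element TGACGTCA was in 1 (1.27%, against 3.51% of the genes considered), that of TUBB2A. CCAAT was in 30 (38.0%, against 37.4% of the genes considered), the GC box GGGCGG in 53 (67.1%, against 71.1%) and TTTGAA, an element of cell cycle promoters, in 8 (10.1%, against 9.51%); in single genes these motifs may overlap. The letters GGAATTTCC, of the kind that NF-kappaB binds, was in 1 window, that of CXCL1 (0.420% of the genes considered). A match is a run of letters and not a site shown to be used.

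Peaks gathered in 2 parts of the day. Of the 100 genes, 62 peaked between 0 and 12 h (CT modulo 24), with a median of 5.98 h, and 38 between 12 and 24 h, with a median of 14.8 h. They are called early and late genes below. From 4 to 8 h there were 35 peaks and from 12 to 16 h there were 28, against 22.02% and 21.8% of all genes considered, and only 1 gene, IMMP2L, peaked after 20 h. The mean of the early genes was above trend at CT28 and CT32, CT52 and CT56, and CT76 in both series, and below it at CT40, CT44, CT64 and CT68. The late genes were highest at CT44 in series 1 and CT40 in series 2, with mean log2 differences from trend of 0.140 and 0.198. At CT76 they were lowest, at -0.183 in series 1 and -0.257 in series 2, where 0 of 38 and 1 of 38 were above trend. The early genes stood at 0.2595 at CT76 of series 2, their largest mean difference in either series, against 0.060 in series 1.

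**Figure D1:**
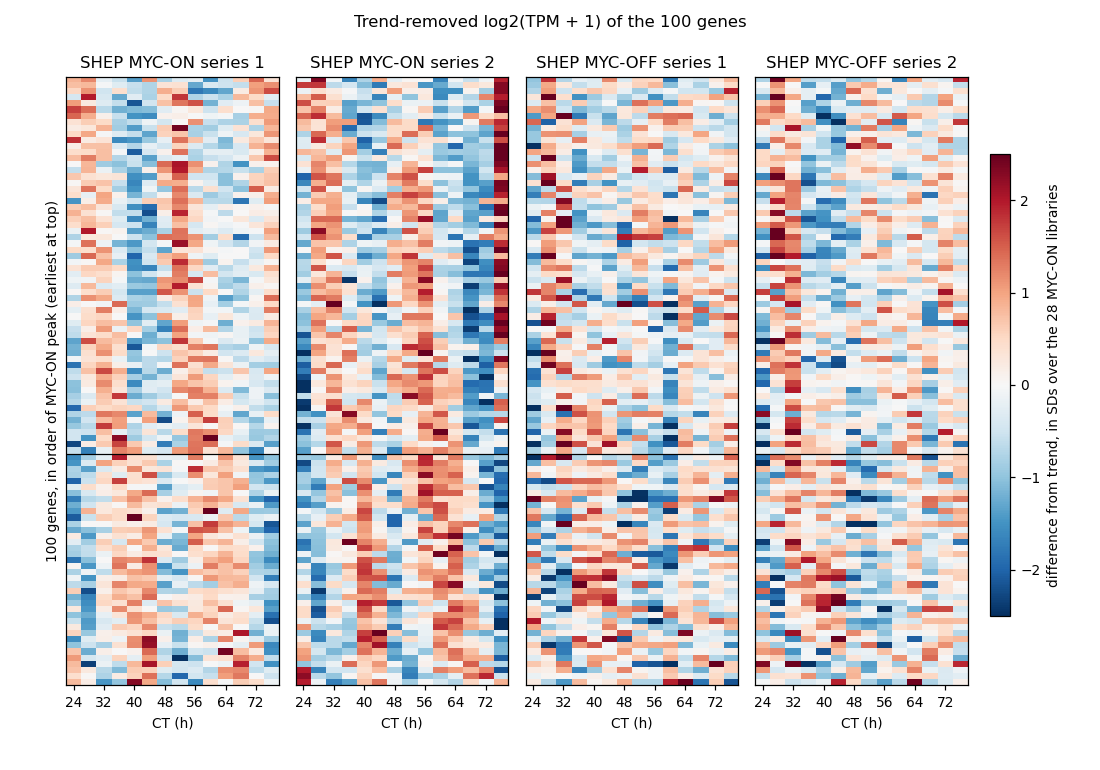
Trend-removed log2(TPM + 1) of the 100 genes (rows, in order of their MYC-ON peak) at each CT in h (columns) of the 4 SHEP series, with colour as the difference from the series' own trend in SDs over the 28 MYC-ON libraries; the line separates the 62 early from the 38 late genes. In MYC-ON the early genes are red at CT28, CT52 and CT76, most of all at CT76 of series 2, and the late genes near CT40 and CT64. In MYC-OFF the first of these bands can be seen and the later ones are faint.

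The swings were small. Amplitudes on the log2(TPM + 1) scale had a median of 0.159, which is a peak 1.25 times the trough, and ran from 0.055 in the late gene LAS1L to 0.346 in CCL2, a peak 1.62 times the trough. All genes considered had a median amplitude of 0.066. Averaged over the series, the largest amplitudes were those of CCL2 (0.350), TNFRSF25 (0.317), C3 (0.311), TNS2 (0.311) and GFRA1 (0.282). TNFRSF25 is a death receptor of lymphoid cells, C3 the central complement component, TNS2 a tensin of focal adhesions and GFRA1 a receptor for GDNF. In C3 the removed trend far exceeded the swing. It ran from 11.1 TPM at CT24 to 102.5 TPM at CT76 in series 1 and from 10.8 TPM at CT24 to 156.5 TPM at CT72 in series 2, and its 24 h curve describes only the course around that rise.

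LRRC20 had its highest TPM at CT28 in both MYC-ON series. From CT24 to CT76 series 1 read 17.7, 19.6, 17.8, 14.4, 12.7, 11.7, 11.9, 11.3, 10.9, 8.97, 7.24, 6.88, 7.06 and 7.44 TPM. Series 2 read 15.9, 18.7, 17.0, 13.4, 11.7, 9.68, 10.6, 10.7, 10.5, 8.55, 7.04, 5.92, 5.95 and 6.69 TPM. The course was a decline with a pause from CT44 to CT56 and a second low at CT68, and the peaks fitted in the 2 series were 5.87 and 6.98 h. In MYC-OFF the mean of both series fell from 26.9 TPM at CT28 to 18.04 TPM at CT40 and stayed between 16.4 and 18.9 TPM from CT44 on.

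CCL2 was far lower in MYC-ON at every CT. The mean of the 2 MYC-ON series from CT24 on was 46.1, 30.9, 41.8, 43.95, 49.2, 46.3, 27.6, 29.6, 34.2, 37.4, 32.2, 28.9, 19.55 and 17.4 TPM. In MYC-OFF it was 126, 66.3, 102, 183, 211, 239, 122, 152, 156, 184, 219, 229.9, 249.3 and 255 TPM. Both conditions had a low at CT28, a high at CT40 or CT44 and a drop at CT48. MYC-OFF then climbed to CT76 while MYC-ON passed through a second high at CT60 and declined.

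SLC2A12 in MYC-ON had a mean of the 2 series of 1.77, 1.80, 1.97, 2.81, 3.48, 3.42, 2.39, 2.67, 3.81, 3.90, 4.25, 3.74, 3.15 and 3.17 TPM. It had a first high at CT40, of 3.48 TPM, and its highest mean at CT64. In MYC-OFF that mean was between 3.76 and 8.98 TPM, with a high at CT44 and its highest mean at CT76. ZNF526 in MYC-ON read 5.78, 7.25, 6.69, 6.58, 5.15, 5.14, 5.06, 5.94, 5.67, 4.96, 4.38, 4.12, 3.68 and 4.69 TPM. Its highs fell on CT28 and CT52 and its low on CT72, and in MYC-OFF the mean was between 5.28 and 8.21 TPM.

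TRIOBP in MYC-ON read 35.4, 35.04, 37.7, 37.6, 31.9, 31.6, 23.1, 27.4, 27.95, 28.02, 23.5, 19.3, 17.8 and 21.2 TPM as the mean of both series. It dropped at CT48 and again after CT60. In MYC-OFF that mean was between 56.5 and 74.4 TPM with no drop of that size. TRAPPC2 in MYC-ON read 9.25, 7.52, 7.93, 8.03, 9.33, 9.86, 7.60, 7.90, 7.96, 8.89, 11.1, 9.72, 8.90 and 7.55 TPM. Its highs at CT44 and CT64 were 20 h apart, and its MYC-OFF means, from 7.91 to 11.3 TPM, were highest at CT28, where MYC-ON was at its lowest.

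**Figure D2:**
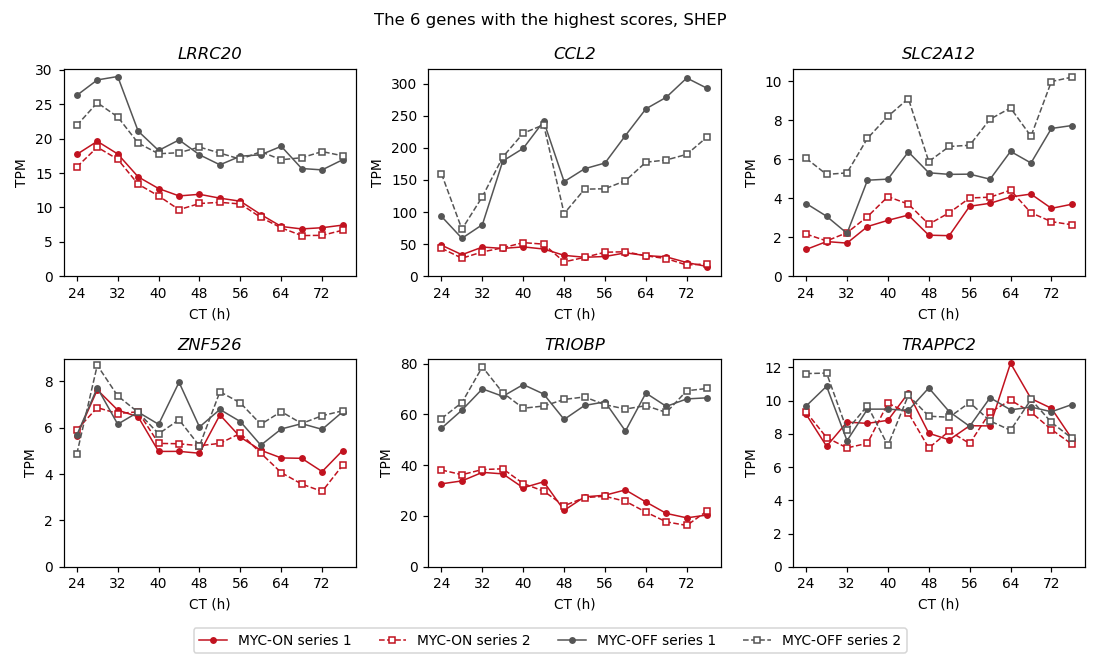
TPM (vertical axis, from 0) against CT in h for the 6 genes with the highest scores in the 4 SHEP series; red is MYC-ON, grey is MYC-OFF, filled points are series 1 and open points series 2. LRRC20, CCL2, SLC2A12 and TRIOBP are lower in MYC-ON at every CT of the same series, and the 2 MYC-ON series lie close together.

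The same choice was repeated with the CTs shuffled, as a description with no test. With 1 shuffled order shared by both series, the 100th score had a median of 0.320 over 50 orders and reached or passed the 0.381 of the real CTs in 13 of 50. The number of genes at or above 0.381 then had a median of 28.5 and a highest value of 503, against 100 with the real CTs. With an order of its own for each series, the median 100th score was 0.246, and 2 of 50 orders reached 0.381. The highest score, by contrast, was 0.880 with the real CTs and at most 0.758 and 0.663 in the 2 kinds of order. A score like that of LRRC20 did not occur in these orders, whereas scores like those near the limit did, in numbers that varied widely from order to order. Shuffling also breaks up any smooth course, with or without a 24 h rhythm. The contrast therefore cannot tell a 24 h rhythm in LRRC20 from another smooth course, and nothing is concluded from it. The share of genes with peaks within 3 h, 40.2%, was reached in 29 of 50 shared and 5 of 50 separate orders.

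**Figure D3:**
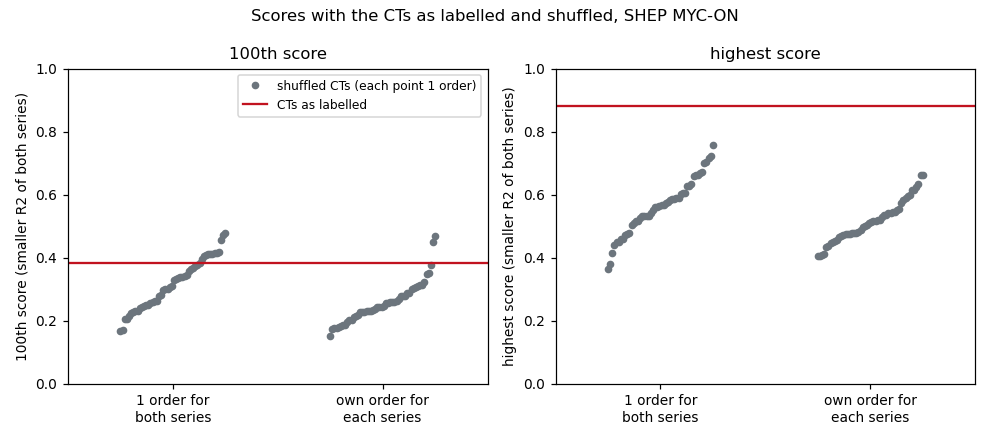
Scores (vertical axis, the smaller R2 of both series, from 0 to 1) with the CTs as labelled (red line) and in 50 shuffled orders of each kind (grey points, sorted); the left panel shows the 100th score and the right panel the highest. For the 100th score the red line lies within both clouds of points (13 of 50 and 2 of 50 reach it), and for the highest score no point reaches it.

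The same choice in SHEP MYC-OFF gave a list of other genes. There 11879 genes were considered, 3868 (32.6%) had peaks within 3 h, the highest score was 0.671 and the 100th 0.376. The 2 lists shared 4 genes, which is 4 of 100 in each: ATF5, a stress-responsive transcription factor, CAVIN1, which coats caveolae, CXCL1, a chemokine for neutrophils, and EWSR1. Of all genes considered in MYC-ON, 0.846% passed the same limit and peak rule in MYC-OFF.

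Most of the 100 genes nevertheless had their MYC-OFF peak at a similar time. Fitted over both MYC-OFF series, 66 of 100 peaked within 3 h of their MYC-ON peak, where 35.8% of all genes considered did. It was 47 of 62 early genes, against 36.9% of all genes with an early MYC-ON peak, and 19 of 38 late genes, against 34.5%. Only 2, the small GTPase RAB13 and the calcium channel ITPR1, both named after their values were seen, were 9 h or more away (16.6% of all genes considered). Between series of different experiments the counts were 65 for MYC-ON series 1 against MYC-OFF series 2 and 42 for MYC-ON series 2 against MYC-OFF series 1, where all genes gave 35.3% and 25.99%. With the GC slope of each library removed they were 66 and 39, where all genes gave 34.5% and 24.2%. Between series of the same number the counts were 47 for series 1 and 71 for series 2 (30.7% and 38.4% of all genes). With the slope removed these were 45 and 61 (30.6% and 35.05%). The 100 genes were chosen for MYC-ON peaks that agree between series, which all genes considered were not. Better-defined MYC-ON peaks can by themselves lift these counts above the shares of all genes. How far they do was not tested. The MYC-OFF amplitude was the smaller one in 96 of 100 genes (60.1% of all genes considered), with a median of 0.074. Since MYC-ON is where the genes were chosen to swing, this difference follows in part from the choice and nothing is read from it. CCL2, CXCL1, the scaffold protein BAIAP2 and the sphingosine kinase SPHK1 were the exceptions, named after their values were seen.

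Tested in the 28 MYC-OFF libraries, which had no part in the choice, 1 of the 100 genes passed the limma F test of the 24 h terms at an adjusted p of at most 0.05, where 0.0975% of 14362 genes tested did. That gene was ATF5 (adjusted p = 0.0354), with a MYC-OFF peak at 2.18 h, an amplitude of 0.1499 and a MYC-ON peak at 4.98 h. The call was lost with the GC slope removed, without the filter on low values, with a period of 22 h, with no replicate block and without either series, each of which left 0 of the 100 genes. ATF5 was highest at CT24 in both MYC-OFF series, at 46.7 and 38.07 TPM, around medians of 31.2 and 31.7 TPM. At an unadjusted p under 0.05 there were 27 of 100, against 10.6% of all genes tested. Of these 27, 20 (74.1%) peaked within 3 h of their MYC-ON peak, while 50.3% of the genes considered with such a p did. The choice for well-defined MYC-ON peaks limits this comparison too. With 1 series alone the count at an unadjusted p under 0.05 was 12 or 10.

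After ATF5 the lowest p-values in MYC-OFF belonged to CXCL1 (adjusted p = 0.0590 in the limma test), CCL2 (0.149), CAVIN1 (0.221) and SOX9 (0.227), a transcription factor of mesenchymal and cartilage cells. None of these 4 passed. CXCL1, CCL2, SOX9 and C3 are all late genes, with MYC-ON peaks from 15.1 to 15.6 h and MYC-OFF peaks from 15.5 to 17.2 h. They were singled out together after their values were seen. CXCL1 was lowest at CT28 in all 4 SHEP series, at 2.62 and 1.94 TPM in MYC-ON and at 11.1 and 8.49 TPM in MYC-OFF. SOX9 was lowest at CT28 in all 4 as well, at 11.1 and 11.7 TPM in MYC-ON and 13.3 and 14.3 TPM in MYC-OFF. CAVIN1 and EWSR1, both early, had MYC-OFF peaks 0.81 and 2.33 h from those in MYC-ON.

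The difference in rhythm between the conditions was fitted for all genes too. No gene passed the limma F test at an adjusted p of at most 0.05, members or others (0%), and 30 of the 100 were at an unadjusted p under 0.05, against 4.81% of all genes tested. As the MYC-ON side of this contrast chose the genes, these numbers are a description. RAB13 had the lowest p of the 100 (unadjusted limma p = 0.000437, adjusted p = 0.678) and peaked at 19.5 h in MYC-ON and 9.62 h in MYC-OFF. TNFRSF8, the receptor CD30, followed (unadjusted limma p = 0.00117, adjusted p = 0.678) with peaks at 6.35 and 23.7 h.

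Clock genes, left out by the rule, give a phase to set beside. Of 16 tested, none passed in MYC-ON at an adjusted p of at most 0.05 (limma; 0.0139% of all genes tested), and 9 were at an unadjusted p under 0.05 (10.9% of all genes tested). Without replicate series 2 the latter count was 4. The 100 genes were chosen on these same MYC-ON values, so no test of them is given here. CRY1 peaked at 13.3 h, PER3 at 11.5 h, TEF at 10.1 h, PER2 at 9.48 h, CRY2 at 9.34 h and NR1D1 at 4.68 h in MYC-ON. CRY1, CRY2 and TEF would have entered the list at places 12, 38 and 39. In MYC-OFF, NR1D2, CRY1 and TEF passed the limma test, each with an adjusted p of 0.00587, and had amplitudes of 0.416, 0.389 and 0.516. ARNTL, with peaks at 17.7 h in MYC-ON and 19.3 h in MYC-OFF, had adjusted limma p-values of 0.551 and 0.0505 and did not pass in either. Of 10 other clock-linked genes such as CSNK1D and WEE1, 8 were considered and 0 were members.

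Of the gene lists only those for cell division held members, and the mitosis and G2M list was also the longest. TOP2A, which untangles DNA, NEK2, a centrosome kinase, and KIF22, a chromosome-arm kinesin, were the 3 members among 89 mitosis and G2M genes. PRIM2, a subunit of DNA primase, was the 1 member among 54 S-phase genes considered, where the choice as a whole took 100 of 11814 genes. All 4 were late, with MYC-ON peaks at 14.4, 15.9, 13.6 and 12.9 h and MYC-OFF peaks at 18.7, 20.8, 21.7 and 16.2 h. TOP2A, NEK2 and KIF22 were lowest at CT76 in both MYC-ON series, and at CT52 or CT56 in both MYC-OFF series. TOP2A read 24.6 TPM at CT76 against a median of 36.1 TPM in MYC-ON series 1, and 24.1 against 42.2 TPM in series 2. Of the 89 mitosis and G2M genes, 70 had a MYC-ON peak from 12 to 24 h, where 45.7% of all genes considered did, and 84 had one there in MYC-OFF (49.1% of all genes). Of the S-phase genes it was 29 of 54 in MYC-ON and 39 in MYC-OFF.

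The remaining lists held 0 members. They were cytosolic ribosomal proteins (79 genes considered), ribosome biogenesis (50), oxidative phosphorylation (54), mitochondrially encoded genes (13), lysosome and endosome (39), extracellular matrix and integrins (30), endoplasmic reticulum folding (27), heat shock and chaperonin (30), ATF4 and amino acid response (22), cholesterol synthesis (23), glycolysis and hypoxia (29), glucocorticoid targets (15), immediate early and AP-1 (26), p53 targets (25), splicing factors (40), interferon-stimulated genes (20) and proteasome (31). The neuroblastoma marker lists held 0 members of 4 adrenergic and 10 mesenchymal genes considered, and the list for other cell types 0 of 1.

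Early and late genes differed in base composition, which the rule did not use. Early genes had a median GC content of 56.4% in their longest transcript and late genes 44.1%, where all genes considered had 47.6%. Under that value lay 12 of 62 early and 29 of 38 late genes. All genes considered showed a like split, with 52.2% for those peaking from 0 to 12 h and 43.5% for the rest. A 24 h curve was also fitted to the GC slope of the libraries. In MYC-ON its peak was at 3.62 h with an R2 of 0.171 in series 1, and at 5.53 h with an R2 of 0.169 in series 2. In MYC-OFF the peaks were at 7.46 and 5.41 h, with R2 of 0.198 and 0.301. With a cosine and a sine fitted to 14 points, such low R2 do not show that the slope had a 24 h course. The fitted peaks lay in the hours of the early genes in both conditions, and nothing is read from that. The correlation of a gene with the MYC-ON slope was taken over the 14 libraries of a series, with trends removed. Its median was 0.28 and 0.50 among early genes and -0.47 and -0.40 among late genes in series 1 and 2. All genes considered had -0.09 and -0.10. The genes were chosen and sorted by peak in these same libraries. The signs are thus in part fixed by the choice, and nothing is read from them. All points of a gene share their libraries, and no p is given. With the slope removed 61 of the 100 genes were chosen again, 37 of 62 early and 24 of 38 late. Among the first 15, LRRC20, CCL2, SLC2A12, ZNF526, TRIOBP, TRAPPC2, TLCD3A, LMLN, EWSR1, ARHGAP23 and CTBP2 were chosen again, and AMN1, TMEM201, DUSP7 and SIRPA were not. LRRC20 then had a score of 0.64 and TRIOBP one of 0.70. What part base composition has in the choice was not tested beyond this.

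**Figure D4:**
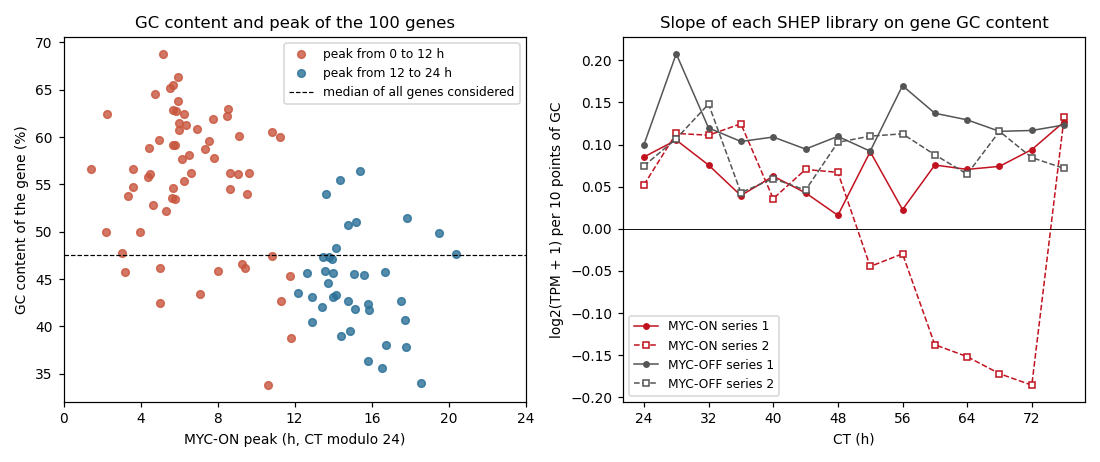
Left, GC content of each of the 100 genes in % against its MYC-ON peak in h, with early genes (0 to 12 h) in red, late genes in blue and the median of all genes considered (47.6%) dashed. Right, slope of log2(TPM + 1) on gene GC content per 10 points of GC in each SHEP library against CT in h; MYC-ON series 2 is below 0 from CT52 to CT72, reaches -0.185 at CT72 and is back at 0.133 at CT76, while the other 3 series stay above 0.

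Levels were then compared between MYC-ON and MYC-OFF, with CT as a factor and each CT of each series taken as a replicate. The p-values measure the spread that remains within CTs, between series and in the difference between conditions from CT to CT. In SHEP they rest on 2 experiments. A lower level can mean less RNA per cell or fewer cells that make it. As TPM are scaled to a fixed total, it can also mean a smaller share of a larger total. TPM of bulk RNA cannot tell these apart. In SHEP, 36 of the 100 genes were higher in MYC-ON and 48 lower by limma, where a call needed an adjusted p of 0.05 or less and a change of 0.15 or more on the log2 scale. Over all genes tested it was 33% and 38.9%. Not called were 16 of the 100 genes and 4042 of the 14362 tested, which include genes of lower level than the choice allowed, and the difference was not tested. Their median log2 change was -0.09, and that of all genes -0.04. Early genes were at -0.17, with 21 higher and 32 lower, and late genes at -0.03, with 15 higher and 16 lower. All 28 MYC-ON libraries lay above all 28 MYC-OFF libraries for 11 genes (6.11% of all genes tested) and below them for 12 (6.36%). The 11 include TNFRSF8, and the 36 higher genes include TNFRSF8 and DEPTOR. Both reached the minimum of 3 TPM only through MYC-ON, so their place in these counts is partly fixed by the choice.

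Among the genes that fell, the chemokines changed most. CCL2 went from 178 ± 65.9 TPM (SD, n = 28) in MYC-OFF to 34.6 ± 10.1 TPM (SD, n = 28) in MYC-ON. The change was -2.28 on the log2 scale (SE 0.13, limma adjusted p = 2.71e-21), and its groups did not overlap, with a lowest MYC-OFF value of 59.2 and a highest MYC-ON value of 52.5 TPM. CXCL1 changed by -1.67 (SE 0.11, limma adjusted p = 4.23e-19), from a median of 16.6 TPM to one of 5.33 TPM. TRIOBP changed by -1.20 (SE 0.06), the microtubule-linked kinase DCLK1 by -1.18 (SE 0.05) and the tensin TNS3 by -1.15 (SE 0.06), with limma adjusted p-values of 5.36e-24, 3.92e-26 and 9.12e-24. All 5 were lower in 28 of 28 pairs of the same series and CT. TNS3 had 11.3 to 26.2 TPM in MYC-ON and 27.8 to 48.9 TPM in MYC-OFF, and DCLK1 5.51 to 12.7 and 14.3 to 27.3 TPM, with no overlap in either.

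Among the genes that rose, IMPDH1, which makes guanine nucleotides, changed by 1.10 (SE 0.04), IMMP2L, a peptidase subunit of the mitochondrial inner membrane, by 1.09 (SE 0.06) and GUCY1B1, a subunit of soluble guanylate cyclase, by 1.08 (SE 0.04). Limma adjusted p-values were 5.18e-27, 1.25e-21 and 3.40e-28 in that order, and all 3 genes were higher in 28 of 28 pairs. IMPDH1 had 99.1 to 218 TPM in MYC-ON and 65.1 to 96.4 TPM in MYC-OFF. TNFRSF8 and DEPTOR, an inhibitor of mTOR, had larger log2 differences, 2.11 and 1.15, but are the 2 genes with a mean under 3 TPM in MYC-OFF. They reached the minimum only through MYC-ON, so their differences are partly fixed by the choice and are given with no test. TNFRSF8 was at 1.25 ± 0.27 TPM (SD, n = 28) in MYC-OFF and 8.70 ± 1.45 TPM (SD, n = 28) in MYC-ON, and DEPTOR at 0.91 ± 0.35 and 3.43 ± 1.56 TPM.

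Of the other genes named, LRRC20 changed by -0.79 (SE 0.05, limma adjusted p = 1.47e-18) and SIRPA by -1.02 (SE 0.07, limma adjusted p = 8.00e-18), and AMN1 and DUSP7 by 1.02 and 0.93 (SE 0.09 and 0.03). ATF5 fell by 0.71 on the log2 scale (SE 0.09, limma adjusted p = 6.36e-10), from a median of 31.5 TPM in MYC-OFF to one of 19.9 TPM in MYC-ON. EWSR1 (-0.05), LMLN (-0.04), C3 (-0.10) and GFRA1 (-0.02) did not pass the test. KIF22 (0.04) and PRIM2 (0.07) did not pass either, while TOP2A changed by -0.30 (SE 0.08, limma adjusted p = 0.000950) and NEK2 by -0.18 (SE 0.07, limma adjusted p = 0.0251).

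In SKNAS, 89 of the 100 genes had a mean of at least 1 TPM and were tested. None passed the 24 h test in MYC-OFF or MYC-ON at an adjusted p of at most 0.05 in limma (0% and 0% of 13886 genes), and 0 and 0 were at an unadjusted p under 0.05, against 0.418% and 0.266%. With so few of all genes under that p, the fit could hardly call any gene. The counts of 0 therefore do not show that these genes lack a rhythm in SKNAS. SKNAS had 1 series per condition, and the median log2 value of its libraries ranged from 2.76 to 4.38. SKNAS peaks lay within 3 h of the SHEP MYC-ON peak for 12 of 88 genes in MYC-OFF (17.7% of all genes) and 34 of 88 in MYC-ON (35.2%). GFRA1 was listed at 0 in all SKNAS libraries.

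Levels in SKNAS rose for 18 and fell for 32 of the 89 genes (13.9% and 34.2% of all genes tested). The split depends on the scaling, since the median change of all genes was -0.29 as deposited, 0.03 after median-of-ratios rescaling and 0.01 with the library median as a covariate. After rescaling 33 genes were higher and 23 lower, and with the covariate 38 and 24. Without the CT56 library of MYC-OFF, in which only 16241 genes were above 0, the counts were 17 and 33. SPHK1, the kinase that makes sphingosine 1-phosphate, rose in both lines, by 1.00 (SE 0.07, limma adjusted p = 2.52e-17) in SHEP and by 3.67 (SE 0.17, limma adjusted p = 4.11e-10) in SKNAS, where it went from 7.73 to 112 TPM on average; it was singled out after its values were seen. CCL2 changed in SKNAS by -1.305 on the log2 scale (SE 0.10, limma adjusted p = 1.15e-07), in 13 of 13 pairs of the same CT. IMMP2L and IMPDH1 rose by 1.65 and 1.21 (SE 0.13 and 0.25), and TRIOBP, TNS3 and DCLK1 changed by -1.44, -1.46 and -0.97. With the library median as a covariate these 3 were -0.93, -0.97 and -0.52, still past the test, and with a pseudocount of 0.1 TPM DCLK1 was at -1.65. LRRC20 (0.01, SE 0.15) and GUCY1B1 (-0.32, SE 0.23) did not pass the test in SKNAS. Whether the changes differ between the lines was not tested.

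**Figure D5:**
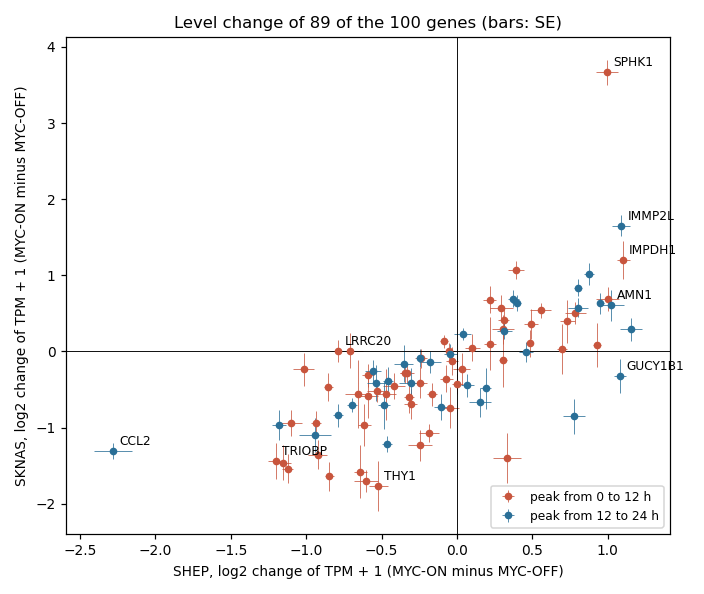
Log2 change of TPM + 1 between MYC-ON and MYC-OFF in SHEP (horizontal axis) and in SKNAS (vertical axis) for the 89 of 100 genes tested in both, with early genes in red, late genes in blue and bars for the SE. CCL2 lies at the lower left with changes of -2.28 and -1.305, IMMP2L and IMPDH1 at the upper right, and SPHK1 apart from the rest with changes of 1.00 and 3.67.

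Of the 100 genes 95 are protein coding in Gencode 44, 3 are long noncoding RNAs (MIR22HG, HOXB-AS1 and MIRLET7BHG) and 2 are transcribed pseudogenes (TEKT4P2 and AMZ2P1). The values of AMZ2P1 and TEKT4P2 are uncertain because they share sequence with AMZ2 and TEKT4, and likewise TUBB2A, whose coding sequence is close to that of TUBB2B. HOXB-AS1 lies antisense within the HOXB cluster, and whether the reads were assigned by strand is not given in the sources used here. LRRC20 (ENSG00000172731) lies on chromosome 10 at 70298970 to 70382650, CCL2 (ENSG00000108691) on chromosome 17 at 34255274 to 34257208 and ATF5 (ENSG00000169136) on chromosome 19 at 49928702 to 49933935, all on GRCh38.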

How the data were processed

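The series measured polyadenylated RNA in 83 libraries. The authors ran Salmon 1.3.0 on a Gencode reference of GRCh38, combined transcripts by gene in Tximport and deposited TPM, which are divided by transcript length and sum to 1000000 in every library, so the depth of each library is unknown. The members, gene lists and tests were chosen with earlier results of these data known.

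Values were analysed as log2(TPM + 1). TPM do not suit the count test that the study applied, so limma 3.58.1 (R 4.3.3) was used, and a 24 h cosine and sine took the place of its oscillation tool. Genes with a mean of at least 1 TPM over a line were tested, with Benjamini-Hochberg adjustment over all of them. The rhythm fit gave each series its own mean and its own linear trend, and the level fit had CT as a factor. The functions were tested on made-up data with known changes. Shuffled CTs used 50 orders of each kind. Library GC slopes were fitted on the GC content of each gene's longest transcript in Gencode 44, which 99.8% of tested genes had. CT72 and CT60 to CT72 of SHEP MYC-ON series 2, and CT56 of SKNAS MYC-OFF, were left out in alternatives chosen after seeing the data.

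Genes named were the 15 highest scores, those around the limit, the 5 largest amplitudes, the 5 lowest p-values in SHEP MYC-OFF, the 5 largest level changes each way, list members and clock genes; all other genes named, such as SPHK1, RAB13, ITPR1, BAIAP2, LAS1L and TUBB2A, were singled out after their values were seen. Columns of per-sample values with no sample numbered 0. The second SKNAS series and the U2OS line were not analysed here.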

Additional observations from a re-analysis of the deposited data

How the results depend on the processing

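Of the counts and smallest member scores recomputed under other settings, 88 stayed within 1.5 times the value reported and 20 did not. Many of the 88 were counts of 0 that stayed 0. These were the adjusted counts in SKNAS, for the rhythm difference and for clock genes in MYC-ON. The 88 also include members chosen again at 71 without the CT72 library of MYC-ON series 2 and 74 with peaks within 2 h. The tally therefore does not measure how stable the counts above 0 were. The adjusted count of rhythmic members in SHEP MYC-OFF, 1, was 0 with the GC slope removed, without the filter on low values, with a period of 22 h and with no replicate block (both series then share a mean and a trend); the cause was not tested. Without either SHEP series it was 0 to 0, and the count at an unadjusted p was 10 to 12 without 1 of the series, where fewer libraries enter, and 20 with no replicate block. The count for the rhythm difference at an unadjusted p was 6 to 10 without 1 series, and that of clock genes in MYC-ON 4 to 6. In SKNAS the unadjusted counts of 0 became 1 in MYC-OFF with the library median as covariate and 1 without the filter, and in MYC-ON 5 with the covariate and 1 with rescaling. Members higher in SKNAS MYC-ON numbered 38 with the covariate and 33 with rescaling, against 18, and the change of GUCY1B1 in SKNAS turned to 0.20 with the covariate. Members chosen again numbered 66 with rescaling, 61 with the GC slope removed and 46 without the CT60 to CT72 libraries of MYC-ON series 2. Members higher or lower in SHEP numbered 37 and 48 with the replicate block, against 36 and 48, and 34 to 36 and 44 to 44 without 1 series. The replicate numbers are shared by both conditions but name only an experiment: the deviations of same-numbered series correlated at 0.489 across genes as series means and at 0.0375 to 0.301 by CT, above 0.1 at 11 of 14 CTs.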
